A study of Mus musculus with 14 samples.

Results

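The 10 genes described here are the classical markers and regulators of the switch between epithelial and mesenchymal states: Cdh1, Epcam, Cdh2, Vim, Fn1, Snai1, Snai2, Zeb1, Zeb2 and Twist1. They were chosen by symbol, and each symbol matched 1 row, giving 10 of the 23174 gene rows of the deposited expression table. Epithelial cells hold together through E-cadherin, the product of Cdh1. In an epithelial to mesenchymal transition E-cadherin gives way to N-cadherin (Cdh2), the filament protein vimentin (Vim) and matrix proteins such as fibronectin (Fn1). The factors of the Snai, Zeb and Twist families drive that switch, and the Snai and Zeb proteins repress Cdh1 by binding E-box sequences at its promoter. In the mouse embryo the same genes serve gastrulation and the formation of parietal endoderm, a migratory cell type of the yolk sac that carries mesenchymal traits.

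The RNA-seq series follows mouse embryonic stem cells (ESCs) towards extraembryonic endoderm (XEN) cells, the stem cells of the yolk sac endoderm, in the presence or absence of the zinc finger transcription factor Zfp281. It holds 14 libraries, 1 per line and stage. WT3 is wild type (titled 3WT), KO3.34 and KO2.6 carry the Zfp281KO genotype (titled 3.34Null and 2.6Null), and Rescue3.34 is line 3.34 with the label Zfp281KO+Zfp281 Rescue. The second knockout line is called 2.6 in its titles and carries another number in its cell line field. All 4 lines are of the 129S1/SVImJ background and were sampled at 3 stages. The ESC stage is undifferentiated culture in serum and LIF. Cells of stage cXENp1 (passage 1) had received 0.01 µM all-trans retinoic acid with 10 ng/mL activin A for 48 h. Cells of stage cXENp3 (passage 3) had received the same treatment, and grew on gelatin after an intervening passage on iMEF fibroblast feeders. XENB1 (129S1) and XEN5 (129S1/SVImJ) are established wild-type XEN lines and mark the endpoint. WT3 and Rescue3.34 are called Zfp281-present below, and KO3.34 and KO2.6 the knockouts. Wild type and rescue have 1 line each and the knockout 2, and Rescue3.34 derives from the same line as KO3.34, so p-values measure the spread between these few lines. Where a line or library is left out below and its pair is compared, the other line stands alone. The spread then comes from the remaining groups, and the lone library is assumed to vary like them.

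Values are FPKM, fragment counts divided by transcript length and by library depth, which allows levels of different genes to be compared per length. The sequencing depth is unknown. Summed FPKM ran from 424406 to 718138 per library, with 14972 to 16831 genes above 0. The sums were 678479 to 718138 in ESCs and 424406 to 520485 at cXENp1. Zfp281 stood between 25.1 and 38.6 FPKM in the Zfp281-present libraries, between 0 and 3.96 FPKM in the knockouts, and at 10.6 and 12.5 FPKM in XENB1 and XEN5. Summed over 7 XEN markers (Gata4, Gata6, Sox17, Sox7, Foxa2, Dab2 and Pdgfra), the knockouts at cXENp3 held 1143 and 928 FPKM and the XEN lines 1008 and 1305. WT3 and Rescue3.34 at cXENp3, although labelled as induced XEN cells, held 5.08 and 13.3 FPKM of these markers, and 2938 and 1764 FPKM of 6 ESC markers. The library Rescue3.34 cXENp3 held the highest sum of fibroblast genes. Its sum over 14 fibroblast markers was 1317 FPKM, with Col1a1 at 509, Col1a2 at 334 and Col3a1 at 305, whereas WT3 cXENp3 held 72.1, the knockouts at cXENp3 318 and 388, and the XEN lines 670 and 591. All 14 of these markers were above 0 in Rescue3.34 cXENp3, and also in both knockouts at cXENp3 and both XEN lines. Lum, Fap and Dpt were at 0 in WT3 cXENp3. Col6a3, Postn, Dpt, Mfap5 and Pdgfrb were higher in XENB1 than in Rescue3.34 cXENp3, and the other listed markers were lower. Feeder fibroblasts express Vim, Cdh2, Snai2, Zeb1, Zeb2 and Twist1 as well, so most of the results that rest on this library are given with and without it. The part of the fibroblast markers in the results was not tested.

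**Figure D1:**
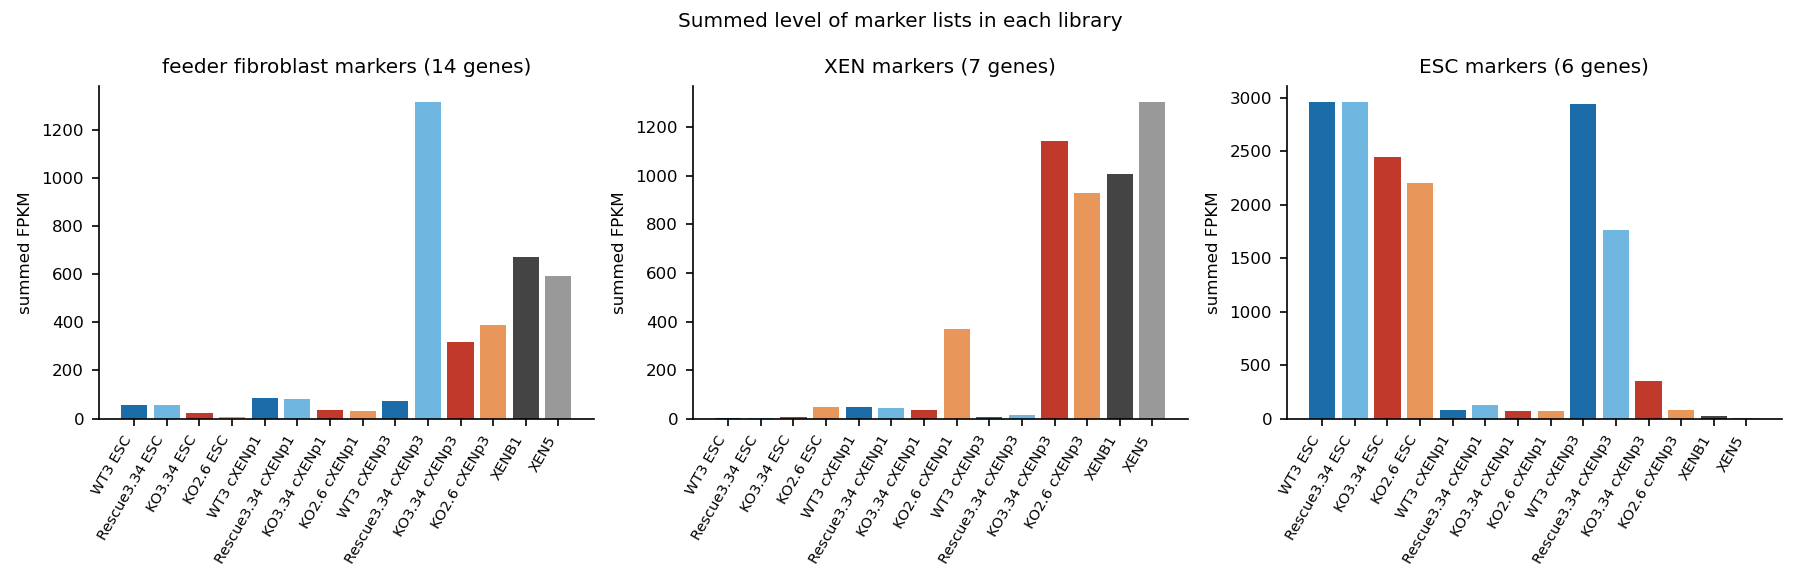
Summed FPKM of 14 feeder fibroblast, 7 XEN and 6 ESC marker genes in each of the 14 libraries (1 bar per library, linear axes from 0, colour by line). Rescue3.34 cXENp3 is the highest bar for fibroblast markers at 1317 FPKM, the knockouts at cXENp3 hold 1143 and 928 FPKM of XEN markers beside 1008 and 1305 in the XEN lines, and KO2.6 already holds 370 FPKM of XEN markers at cXENp1.

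In the established XEN lines, 5 of the 10 genes were higher than in ESCs and 1 was lower. Snai1, Vim, Snai2, Cdh2 and Zeb2 rose and Cdh1 fell by limma at a Benjamini-Hochberg adjusted p under 0.05, a threshold that 41.9% of the 12372 genes tested passed, 22.2% of them higher and 19.7% lower. The members' median log2 change was 1.65, beside -0.02 over all genes. Genes were tested if they had at least 1 FPKM in 2 or more fitted libraries. Cdh2, Snai2 and Zeb2 were under 1 FPKM in every ESC library and entered only through the XEN lines. These genes could therefore only be called higher, and the count of risers and the median rest in part on them. Log2 changes here are on the log2(FPKM + 1) scale, where changes of genes with low levels come out smaller. Epcam, Zeb1, Twist1 and Fn1 did not pass.

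**Figure D2:**
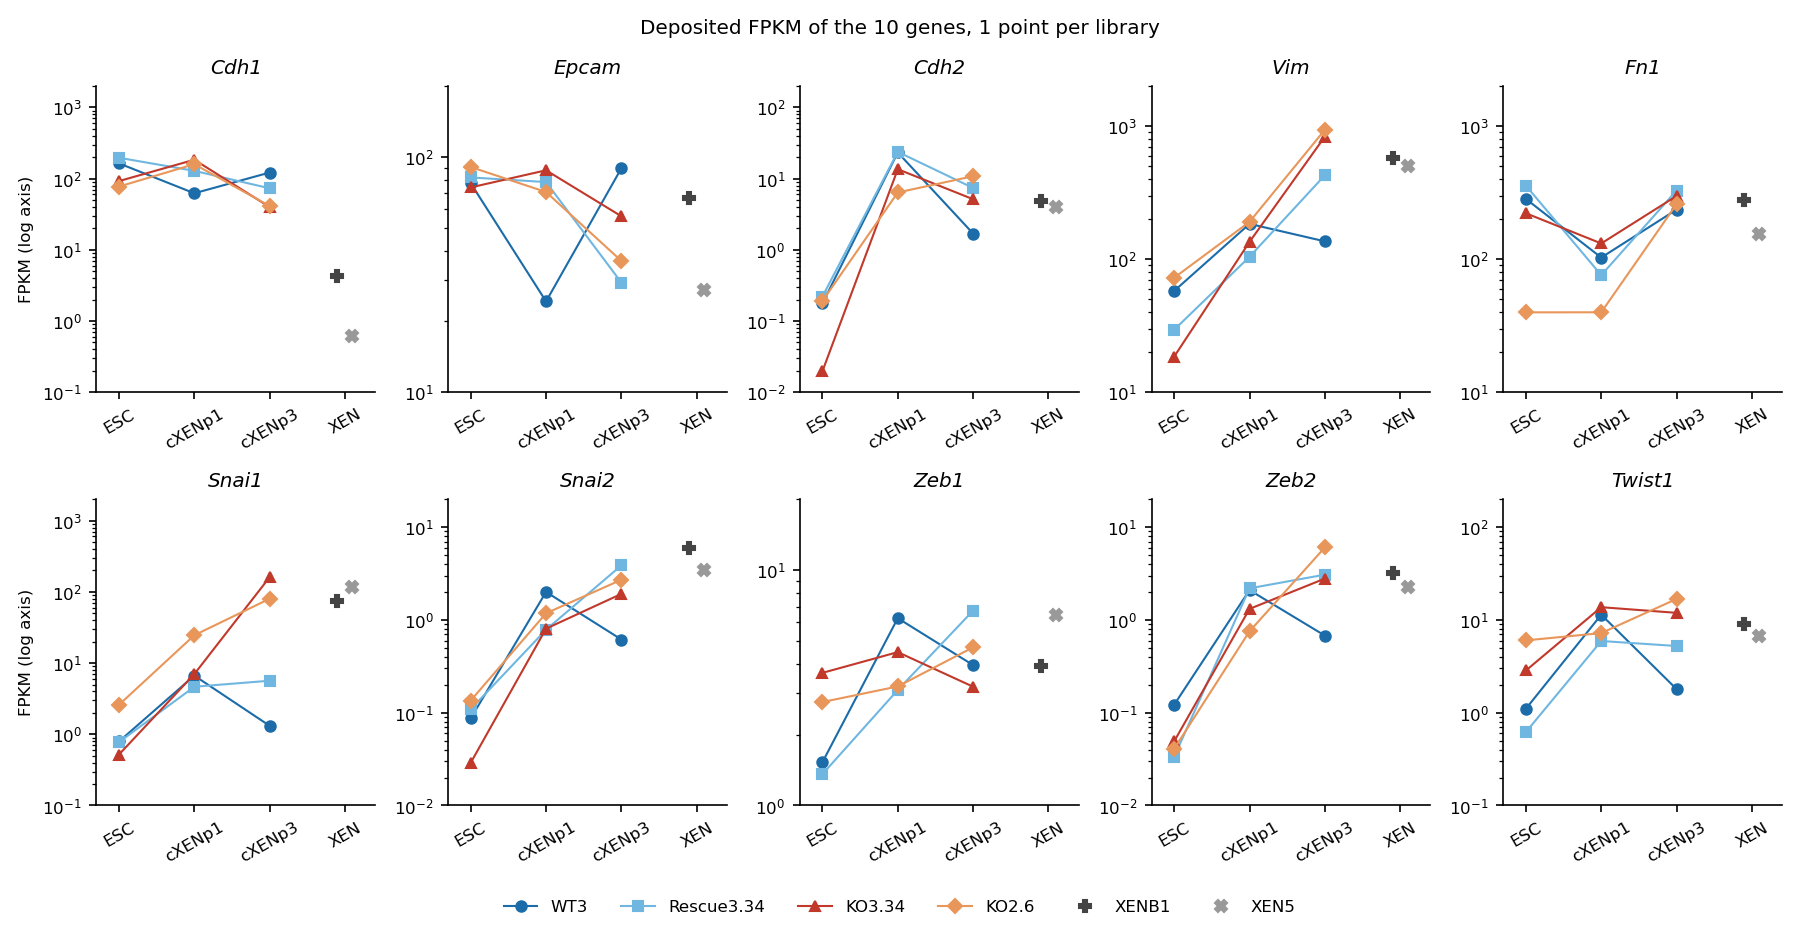
FPKM of the 10 genes (log axes, each with its own range) at the ESC, cXENp1, cXENp3 and XEN stages, with 1 point per library and lines joining the 3 stages of each line. Snai1 and Vim of the knockouts reach or pass the XEN lines at cXENp3, while Cdh1 of the knockouts, at 39.9 and 41.3 FPKM, stays above both XEN lines.

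Cdh1 (XLOC_020124, chr8:109127268-109194146 in mm9), which encodes E-cadherin, kept a high level through the whole course and was under 5 FPKM only in the XEN lines. In the order WT3, Rescue3.34, KO3.34 and KO2.6, which is used throughout, its levels were 164, 196, 92.4 and 77.5 FPKM in ESCs. At cXENp1 they were 62.3, 129, 184 and 159 FPKM, and at cXENp3 122, 73.2, 39.9 and 41.3 FPKM. XENB1 held 4.28 and XEN5 0.610 FPKM. The Zfp281-present pair was the higher one in ESCs and at cXENp3, and the knockout pair at cXENp1, without overlap at any stage. Only the difference at cXENp3 was called. At each of these stages 4 of the 10 members did not overlap, and the share of all genes that separate in this way was not computed. From ESCs to XEN lines Cdh1 fell by 5.41 on the log2 scale (SE 0.54, limma adjusted p = 0.000234), a 54.2-fold lower mean FPKM. From ESCs to cXENp1 its change over the 4 lines was 0.01 (SE 0.46, limma adjusted p = 0.994). WT3 and Rescue3.34 moved by -1.38 and -0.61 and KO3.34 and KO2.6 by 0.99 and 1.03.

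Between passages 1 and 3, Cdh1 fell by 2.05 in the knockouts (SE 0.33, limma adjusted p = 0.00256). The change in the Zfp281-present lines differed from it, with an interaction of -2.13 (SE 0.47, limma adjusted p = 0.0237). WT3 moved by 0.96 and Rescue3.34 by -0.81 in that step. At cXENp3 the knockouts were below the Zfp281-present lines by a log2 change of -1.20 (SE 0.33, limma adjusted p = 0.0172), and by -1.56 (adjusted p = 0.0120) without Rescue3.34 cXENp3. Leaving out WT3 ended that call (-0.83, adjusted p = 0.111) and that of the interaction (-1.25, adjusted p = 0.347). Leaving out KO3.34 or KO2.6 did so too, with adjusted p = 0.0757 and 0.0873 at cXENp3 and 0.0758 and 0.0847 for the interaction, and leaving out KO3.34 took the fall in the knockouts to adjusted p = 0.0596. In ESCs and at cXENp1 the knockout difference in Cdh1 was -1.07 (limma adjusted p = 0.110) and 0.93 (0.322).

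Epcam (XLOC_008692, chr17:88035319-88050467 in mm9) encodes an epithelial adhesion protein that is abundant in ESCs. It was at 77.2, 81.8, 74.2 and 90.5 FPKM in ESCs, at 24.3, 78.1, 87.7 and 70.9 FPKM at cXENp1, and at 89.4, 29.2, 55.9 and 36.1 FPKM at cXENp3. Unlike Cdh1, it was still at 67.1 FPKM in XENB1 and 27.1 FPKM in XEN5. Both XEN lines lay below the 4 ESC libraries, by a log2 change of -0.90 that did not pass (SE 0.33, limma adjusted p = 0.0613), and without XENB1 the change was -1.54 (adjusted p = 0.0101). WT3 cXENp1 and XEN5 were the lowest libraries, and no comparison between knockouts and Zfp281-present lines was called for Epcam.

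Cdh2 (XLOC_009590) encodes N-cadherin, the cadherin of mesenchymal and neural cells. It was close to 0 in ESCs, at 0.177, 0.221, 0.0198 and 0.192 FPKM, and highest at cXENp1, at 23.3, 23.8, 13.6 and 6.39 FPKM. At cXENp3 it stood at 1.69, 7.39, 5.14 and 10.8 FPKM, and at 4.92 and 4.001 FPKM in XENB1 and XEN5. The knockout difference in Cdh2 at cXENp3 was 0.84 (SE 0.52, limma adjusted p = 0.217), and 1.66 without Rescue3.34 cXENp3. The rise of Cdh2 from ESCs to cXENp1 was the largest of the 10 genes in that step. It was a log2 change of 3.79 (SE 0.49, limma adjusted p = 0.00102), seen in 4 of 4 lines. With Vim, Twist1 and Zeb2 it made 4 members called from ESCs to cXENp1, all higher, where 28.5% of all genes were called and 14.7% were called higher and 13.8% lower. Library descriptions start with JH in ESCs of every line but KO2.6, and with XH everywhere else. With that prefix as a term the change in Cdh2 was 3.63 (adjusted p = 0.0687) and none of the 4 was called. Over all genes 439 were called with that term, in place of 3760. Within KO2.6, whose libraries share 1 prefix, Cdh2 moved by 2.63, Vim by 1.38, Zeb2 by 0.75 and Twist1 by 0.23. Of 8 neural progenitor markers 5 were tested in this step, of which 3 rose and 1 fell. Pax6 went from between 0.0420 and 0.324 FPKM in ESCs to 16.4, 9.77, 4.03 and 4.55 FPKM, whereas Tubb3 went from 70.5, 84.2, 35.0 and 59.4 FPKM to 14.6, 61.6, 30.1 and 12.1 FPKM. Summed over the 8 markers, ESCs held 65.8 to 92.3 FPKM and cXENp1 libraries 43.0 to 138 FPKM, and the part of these markers in the Cdh2 rise was not tested.

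Cdh2 then fell by 2.37 in the Zfp281-present lines from passage 1 to 3 (SE 0.52, limma adjusted p = 0.0188). It was the only member called in that comparison, in which 10.9% of all genes were called, 4.91% higher and 6.01% lower. Without Rescue3.34 cXENp3 the change was -3.19 (adjusted p = 0.00505). The call was lost when the whole line Rescue3.34 (adjusted p = 0.0594) or WT3 (-1.56, adjusted p = 0.527) was left out. In the knockouts KO3.34 moved by -1.25 and KO2.6 by 0.68 in the same step. The difference between the pairs in this step was 2.08 (SE 0.73, limma adjusted p = 0.0867), and 2.90 (adjusted p = 0.0173) without Rescue3.34 cXENp3.

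The balance of the 2 cadherins was taken as the log2 of (Cdh2 + 1)/(Cdh1 + 1) in each library, with no test. It lay between -7.34 and -6.04 in ESCs. At cXENp1 it was -1.38 in WT3 and -2.39 in Rescue3.34, against -3.67 and -4.44 in the knockouts. At cXENp3 the order of the lines was the opposite, with -5.51 and -3.14 in the Zfp281-present lines against -2.74 and -1.84 in the knockouts. Only XENB1 and XEN5 were above 0, at 0.17 and 1.64. Cdh2 thus amounted to 37.4% of the Cdh1 level in WT3 at cXENp1 and to 1.39% at cXENp3. In KO2.6 it went from 4.01% to 26.2%, and XEN5 held 6.56 times as much Cdh2 as Cdh1.

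**Figure D3:**
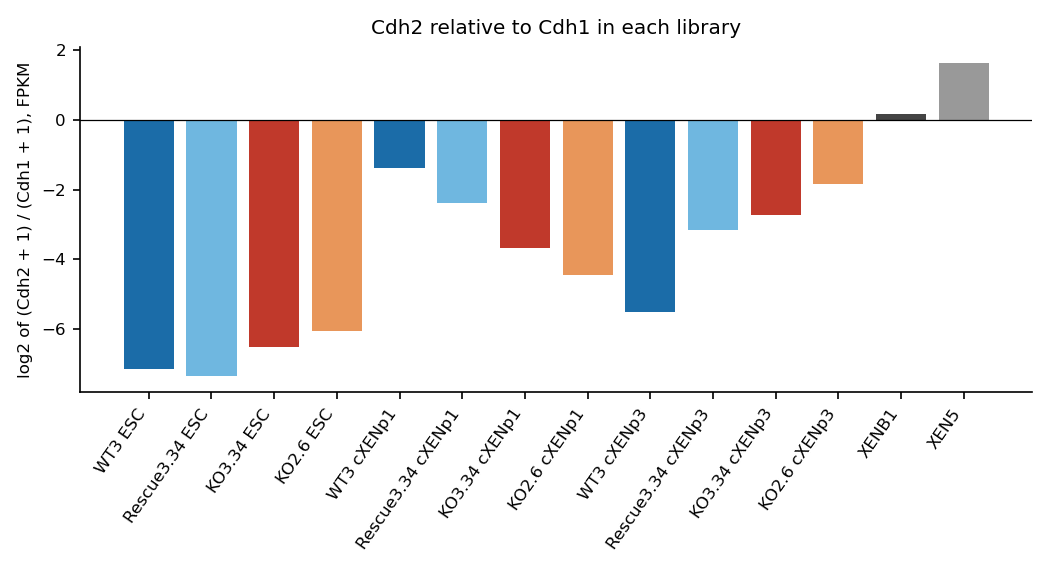
Log2 of (Cdh2 + 1)/(Cdh1 + 1), from FPKM, in each of the 14 libraries (1 bar per library, colour by line). The Zfp281-present lines are the higher pair at cXENp1 and the lower pair at cXENp3, and the 2 XEN lines are the only libraries above 0.

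Vim (XLOC_010630, chr2:13495938-13504453 in mm9) encodes vimentin, the intermediate filament of mesenchymal cells. It was at 57.7, 29.5, 18.5 and 72.5 FPKM in ESCs and at 184, 104, 135 and 191 FPKM at cXENp1. At cXENp3 the knockouts reached 832 and 937 FPKM, against 136 and 427 FPKM in the Zfp281-present lines. XENB1 held 574 and XEN5 498 FPKM. All cXENp1 libraries were above all ESC libraries, and both knockouts at cXENp3 were above every other library. The rise to the XEN lines was 3.74 (SE 0.50, limma adjusted p = 0.000862) and the rise to cXENp1 was 1.91 (SE 0.54, limma adjusted p = 0.0288). The cXENp1 call was lost without KO2.6, KO3.34 or Rescue3.34, with adjusted p = 0.0525, 0.0990 and 0.109.

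At cXENp3, 4 members were called between the knockouts and the Zfp281-present lines: Snai1, Vim and Twist1 were higher and Cdh1 lower, where 41.9% of all genes were called, 22.9% higher and 19% lower. The members' median log2 difference was 0.53, beside 0.01 over all genes. For Vim the difference was 1.87 (SE 0.66, limma adjusted p = 0.0442). Without Rescue3.34 cXENp3, the library with the higher Vim of the Zfp281-present pair, it was 2.69 (adjusted p = 0.0170). Without WT3 it was 1.05 (adjusted p = 0.352), and leaving out KO2.6 or KO3.34 gave adjusted p = 0.0987 and 0.0604. Vim rose by 2.45 from passage 1 to 3 in the knockouts (SE 0.66, limma adjusted p = 0.0263). It was 1 of 4 members called there, with Snai1 and Zeb2 higher and Cdh1 lower, in a comparison in which 21.3% of all genes were called, 12.5% higher and 8.8% lower. That call for Vim was lost without KO2.6 (adjusted p = 0.0770) or KO3.34 (0.111).

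Fn1 (XLOC_000816, chr1:71632047-71699808 in mm9), the fibronectin gene, followed another course. It was at 283, 357, 221 and 39.8 FPKM in ESCs, at 103, 75.8, 131 and 39.9 FPKM at cXENp1 and at 236, 328, 299 and 259 FPKM at cXENp3. XENB1 and XEN5 held 277 and 154 FPKM. In 3 lines cXENp1 was the lowest stage, and KO2.6 was at the same low level in ESCs and at cXENp1. The change from ESCs to cXENp1 was -1.11 (SE 0.44, limma adjusted p = 0.0845), and -1.47 (adjusted p = 0.00961) without KO2.6. From passage 1 to 3 it was 1.92 in the knockouts (SE 0.70, limma adjusted p = 0.0790) and 1.64 in the Zfp281-present lines (SE 0.70, limma adjusted p = 0.157). With the line as replicate block the former was called (adjusted p = 0.0224), and the latter was called when KO2.6 or KO3.34 was left out (adjusted p = 0.00758 and 0.00834). The XEN lines and the ESC libraries overlapped, with a log2 change of 0.25 (SE 0.80, limma adjusted p = 0.823). Once the prefix entered the fit, which sets the XEN lines against KO2.6 as the one ESC library that shares theirs, the change in Fn1 was 2.35 and was called (adjusted p = 0.00597). In ESCs the knockout difference in Fn1 was -1.74 (limma adjusted p = 0.196), and without KO3.34 it was -2.96 (adjusted p = 0.00611), with KO2.6 as a lone library and the spread taken from the other groups.

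Snai1 (XLOC_011481, chr2:167363727-167368311 in mm9) encodes Snail, a zinc finger repressor of Cdh1. In human colorectal cancer cells, ZNF281, the human counterpart of Zfp281, has been reported to induce SNAI1 and to promote the transition. The 250 bases before the RefSeq start of Snai1 and of Epcam are shown because Snai and Zeb proteins bind the E-box CACCTG (reverse complement CAGGTG), which was searched on both strands and is in capitals. RefSeq windows in GRCm38.p6 were matched for 5 of the 10 members (Epcam, Snai1, Twist1, Vim and Zeb2), and 17.2% of all 32851 windows of this length hold the motif. Snai1 has it once, beginning 126 bases before its start (chr2:167537945-167538194, plus strand). Epcam has it at 187 and 19 bases before its start (chr17:87635729-87635978, plus strand).
Snai1: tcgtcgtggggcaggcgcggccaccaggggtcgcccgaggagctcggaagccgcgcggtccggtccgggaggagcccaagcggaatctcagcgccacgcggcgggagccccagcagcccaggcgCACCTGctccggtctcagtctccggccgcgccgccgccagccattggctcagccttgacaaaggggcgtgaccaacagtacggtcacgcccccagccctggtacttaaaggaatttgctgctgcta
Epcam: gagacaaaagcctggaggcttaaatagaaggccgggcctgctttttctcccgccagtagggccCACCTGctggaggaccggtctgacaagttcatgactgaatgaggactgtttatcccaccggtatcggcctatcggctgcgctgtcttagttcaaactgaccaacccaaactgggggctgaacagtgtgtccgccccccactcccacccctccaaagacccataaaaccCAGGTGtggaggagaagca
The windows of Vim, Twist1 and Zeb2 hold no CACCTG. The G-rich motif GGGGAGGG (reverse complement CCCTCCCC), close to what Zfp281 is known to bind, was searched on both strands too. It occurs once each in the windows of Vim and Twist1 and in 1 of 4 windows of Zeb2, and not in those of Snai1 and Epcam, while 9.69% of all windows hold it.

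Snai1 had the largest log2 change of the 10 genes both in the XEN lines and between the pairs of lines at cXENp3. It was at 0.793, 0.776, 0.520 and 2.60 FPKM in ESCs and at 6.67, 4.65, 7.01 and 24.6 FPKM at cXENp1. At cXENp3 the knockouts held 161 and 80.1 FPKM, against 1.32 and 5.65 FPKM in the Zfp281-present lines. XENB1 was at 74.9 and XEN5 at 116 FPKM. KO2.6 was the highest line in ESCs and at cXENp1, and KO3.34 at cXENp3, and the knockouts overlapped with the XEN lines there. From ESCs to XEN lines Snai1 rose by 5.53 (SE 0.40, limma adjusted p = 5.42e-05), an 81.6-fold higher mean FPKM. The change to cXENp1 was 2.25 and did not pass (SE 0.89, limma adjusted p = 0.0849), although all 4 lines were higher; with a pseudocount of 0.1 in place of 1 it was 3.02 and passed (adjusted p = 0.0438).

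At cXENp3 Snai1 was higher in the knockouts by 4.87 (SE 0.66, limma adjusted p = 0.000638), a 34.6-fold higher mean FPKM. Without Rescue3.34 cXENp3 the difference was 5.63 (adjusted p = 0.000988), and it was called whichever line was left out, with 4.11 as the smallest value. Snai1 rose by 3.00 from passage 1 to 3 in the knockouts (SE 0.66, limma adjusted p = 0.0112). KO3.34 rose by 4.34 and KO2.6 by 1.66, and without KO3.34 the call was lost (adjusted p = 0.137). WT3 moved by -1.73 and Rescue3.34 by 0.24. The change differed between the pairs by 3.75 (SE 0.93, limma adjusted p = 0.0319). With Cdh1, Snai1 made 2 members called in this interaction, where 11.4% of all genes were called, 7.19% higher and 4.26% lower. The interaction for Snai1 was lost without KO3.34, Rescue3.34 or WT3 (adjusted p = 0.0800, 0.0887 and 0.441), and was 4.51 (adjusted p = 0.0167) without the library Rescue3.34 cXENp3 alone.

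Snai2 (XLOC_007470) encodes Slug, the second Snai repressor, and was below Snai1 in all 14 libraries. It was at 0.0870, 0.109, 0.0289 and 0.135 FPKM in ESCs, at 2.00, 0.785, 0.806 and 1.18 FPKM at cXENp1 and at 0.615, 3.87, 1.91 and 2.71 FPKM at cXENp3. XENB1 held 5.96 and XEN5 3.43 FPKM, so Rescue3.34 at cXENp3 was the one course library in the range of the XEN lines. The rise to the XEN lines was 2.35 (SE 0.25, limma adjusted p = 0.000304), and the change to cXENp1 was 0.98 (SE 0.33, limma adjusted p = 0.0509; without the replicate block adjusted p = 0.0356). At these low levels the pseudocount weighs on the value, and with 0.1 in place of 1 the change in Snai2 to cXENp1 was 2.71 and was called (adjusted p = 0.00798). The knockouts and the Zfp281-present lines overlapped at every stage. Their difference at cXENp3 was 0.23 (limma adjusted p = 0.712), with -0.57 without WT3. Without Rescue3.34 cXENp3, which leaves WT3 as a lone library against the knockouts with the spread of the other groups, it was 1.02 (adjusted p = 0.0425).

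Zeb1 (XLOC_009276) and Zeb2 (XLOC_011793, chr2:44839154-44969604 in mm9) encode paired zinc finger repressors of Cdh1. Zeb1 was never near 0 and lay between 1.36 and 6.73 FPKM in all 14 libraries. It was at 1.53, 1.36, 3.66 and 2.75 FPKM in ESCs, at 6.25, 3.10, 4.48 and 3.21 FPKM at cXENp1, at 3.95, 6.73, 3.20 and 4.70 FPKM at cXENp3, and at 3.93 and 6.47 FPKM in XENB1 and XEN5. No comparison was called for Zeb1. In ESCs both knockouts were above both Zfp281-present lines, by 0.78 (SE 0.34, limma adjusted p = 0.231), and the change to the XEN lines was 0.92 (SE 0.36, limma adjusted p = 0.0722; without KO3.34 1.11, adjusted p = 0.0448).

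Zeb2 was at 0.122, 0.0335, 0.0492 and 0.0409 FPKM in ESCs and at 2.098, 2.19, 1.32 and 0.754 FPKM at cXENp1. At cXENp3 it was at 0.678, 3.08, 2.79 and 6.04 FPKM, and XENB1 and XEN5 held 3.21 and 2.27 FPKM. It was near 0 in every ESC library and above 0.5 FPKM in every other. Zeb2 rose by 1.81 to the XEN lines (SE 0.21, limma adjusted p = 0.000512) and by 1.25 to cXENp1 (SE 0.39, limma adjusted p = 0.0401). The latter call was lost without KO3.34, Rescue3.34 or WT3 (adjusted p = 0.138, 0.175 and 0.0508). It was also lost with quantile normalization (0.88, limma adjusted p = 0.097) and without a filter (limma adjusted p = 0.0594). In the knockouts it rose by 1.36 from passage 1 to 3 (SE 0.41, limma adjusted p = 0.0409), with KO2.6 at 2.01 and KO3.34 at 0.71. That call was lost whichever of the 4 lines was left out, with adjusted p from 0.0555 to 0.449. At cXENp3 the knockout difference was 0.98 (SE 0.41, limma adjusted p = 0.0786), and 1.62 (adjusted p = 0.00965) without Rescue3.34 cXENp3.

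Twist1 (XLOC_004146, chr12:34642536-34644696 in mm9) encodes a basic helix-loop-helix factor of mesenchyme. It was at 1.10, 0.619, 2.85 and 6.02 FPKM in ESCs, at 11.4, 5.93, 13.7 and 7.22 FPKM at cXENp1 and at 1.80, 5.24, 11.9 and 16.8 FPKM at cXENp3. XENB1 held 8.96 and XEN5 6.63 FPKM. The knockouts were above the Zfp281-present lines in ESCs and at cXENp3, and mixed with them at cXENp1. In ESCs the difference was 1.49 (SE 0.48, limma adjusted p = 0.120), and at cXENp3 it was 1.86 (SE 0.48, limma adjusted p = 0.0125) and 2.44 (adjusted p = 0.00749) without Rescue3.34 cXENp3. The cXENp3 call was lost without WT3 (1.28, adjusted p = 0.167) or KO2.6 (1.63, adjusted p = 0.0602). Twist1 rose by 1.70 from ESCs to cXENp1 (SE 0.45, limma adjusted p = 0.0216), a call lost without KO3.34 or Rescue3.34 (adjusted p = 0.110 for each). The change to the XEN lines was 1.49 (SE 0.56, limma adjusted p = 0.0641), and 1.89 (adjusted p = 0.00589) without KO2.6.

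Before passage 3, none of the 10 genes was called between the knockouts and the Zfp281-present lines by limma. In ESCs 1.97% of all genes were called (1.05% higher, 0.917% lower), and 4 members (Fn1, Twist1, Zeb1 and Cdh1) had an unadjusted p under 0.05, as had 20.9% of the 13191 genes tested. At cXENp1 0.485% of all genes were called (0.364% higher, 0.121% lower), and 2 members (Cdh1 and Cdh2, the latter at -1.24) had an unadjusted p under 0.05, as had 11.3% of all genes. All 12 libraries of the course entered these fits, so the spread was shared over 6 groups of 2.

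Set against their own ESCs, the Zfp281-present lines at cXENp3 had no member called by limma, where 1.3% of all genes were called (0.561% higher, 0.735% lower). An unadjusted p under 0.05 was reached by 7 members and by 18.2% of all genes. The 7 were Vim (2.52), Cdh2 (1.99), Snai2 (1.35), Zeb1 (1.34), Zeb2 (1.28), Twist1 (1.18) and Cdh1 (-0.92), with adjusted p from 0.0905 to 0.237. In each of the 7 genes Rescue3.34 was the line that had moved further. Vim, for example, moved by 3.81 in Rescue3.34 and by 1.22 in WT3, and Snai2 by 2.14 and 0.57. Without Rescue3.34 cXENp3 the changes in these 7 genes kept their sign, at 1.70 for Vim and 0.56 for Snai2, with adjusted p from 0.501 to 0.849, and 15 genes in all were called in place of 171. In this bulk RNA a change in the share of cells that express a gene and a change in RNA per cell cannot be told apart.

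Compared with the established XEN lines, the knockouts at cXENp3 differed in 1 of the 10 genes. Cdh1 was higher by 3.83 (SE 0.48, limma adjusted p = 0.00192), a 16.6-fold higher mean FPKM, where 4.12% of all genes were called, 2.64% higher and 1.48% lower. The call held when any 1 line was left out, with the change between 2.98 and 4.69. The other 9 were not called, and Epcam, Fn1, Snai1, Zeb1 and Zeb2 overlapped between the groups. Snai1, for example, was at 161 and 80.1 FPKM in the knockouts against 74.9 and 116 in the XEN lines. Without a call, both knockouts were above both XEN lines in Twist1 (1.84-fold in mean FPKM), Cdh2 (1.79-fold) and Vim (1.65-fold), and below them in Snai2 (2.03-fold). The share of all genes that separate in this way between these pairs of libraries was not computed. The 6 ESC markers summed to 354 and 77.6 FPKM in the 2 knockouts at cXENp3, and to 28.7 and 5.97 FPKM in the XEN lines. The part of these values in the Cdh1 difference was not tested, and Cdh1 was at 39.9 and 41.3 FPKM in these same 2 libraries.

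**Figure D4:**
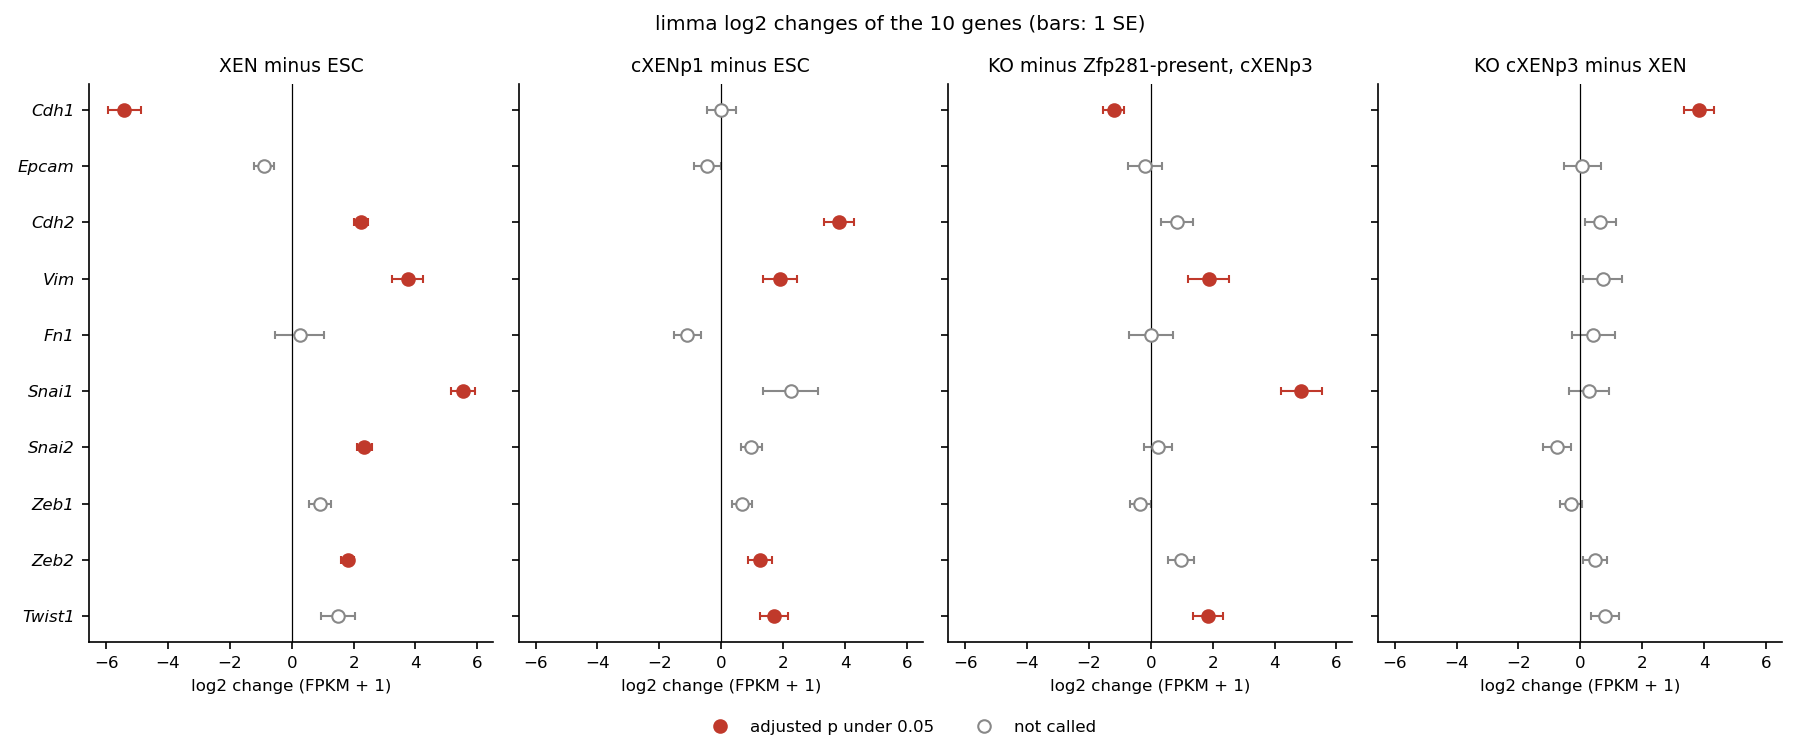
Limma log2 changes on the log2(FPKM + 1) scale (points) with 1 SE (bars) for the 10 genes in 4 comparisons, filled where the adjusted p is under 0.05. Cdh1 is lowest in the XEN lines relative to ESCs at -5.41 and is the only filled point between the knockouts at cXENp3 and the XEN lines, at 3.83.

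A wider list of 38 genes of epithelial junctions, polarity, splicing and keratins, all matched, changed in both directions. In the XEN lines against ESCs 8 of the 35 tested rose, 9 fell and 18 did not pass, with a median log2 change of -0.30 beside -0.02 over all genes. The shares were 22.9% higher and 25.7% lower, beside 22.2% and 19.7% of all genes. The risers were led by the simple epithelial keratins Krt18 (4.70), Krt19 (4.39) and Krt8 (4.25), whose limma adjusted p values were at most 0.000928. The fallers were led by the claudin Cldn4 (-6.20), the protease inhibitor Spint1 (-3.31) and the tight junction scaffold Tjp3 (-3.10), with adjusted p at most 0.00212. Cldn4 stood at 68.6 to 148 FPKM in ESCs, 7.28 to 42.1 FPKM at cXENp3 and 0.963 and 0.0399 FPKM in XENB1 and XEN5. At cXENp1 13 of 36 epithelial genes had risen and 2 had fallen, where 14.7% of all genes rose and 13.8% fell. The 13 were 5 without KO3.34 and 8 without Rescue3.34. Rises over all genes went from 1934 of 13191 to 746 of 12846 and 780 of 12998. In the XEN lines fewer of the 8 risers were called without XENB1 and fewer of the 9 fallers without XEN5, as was the case over all genes. At cXENp1 Krt18 (4.20), Krt8 (3.34) and the junctional adhesion molecule F11r (2.91) led the risers. Tjp3 (-2.38) and Spint2 (-1.08) were the 2 that fell at that stage, all 5 genes with limma adjusted p of at most 0.0191.

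From passage 1 to 3, 11 of 36 epithelial genes fell and 1 rose in the knockouts, and 10 fell in the Zfp281-present lines, where falls were called in 8.8% and 6.01% of all genes. The 11 became 4 without KO2.6 and 3 without KO3.34. The 10 became 7 without the library Rescue3.34 cXENp3, and 2 without the line Rescue3.34 or WT3. Krt18 (-3.73) and Krt8 (-3.66) led those that fell in the Zfp281-present lines. Cldn4 (-2.52), Cldn6 (-2.52) and Ppl, a desmosomal plaque protein (-2.47), led them in the knockouts. At cXENp3 the knockouts were higher in 10 of 36, a share of 27.8% beside 22.9% of all genes, and lower in 2, beside 19% of all genes. Without Rescue3.34 cXENp3 10 were higher and 4 lower. The leading genes were Krt8 (5.08), Krt18 (3.95) and Krt19 (3.24), and the lower ones were Cdh3, which encodes P-cadherin (-3.17), and the transcription factor Grhl1 (-1.06). Limma adjusted p values for these 5 genes were at most 0.00591. Cdh3 was also the one listed gene called in ESCs, lower in the knockouts by a log2 change of -2.46 (limma adjusted p = 0.0134). It was at 26.3 and 37.2 FPKM in the Zfp281-present lines and 6.55 and 3.58 FPKM in the knockouts. This call was lost without WT3 or Rescue3.34, as were nearly all calls over all genes, with the other line then standing alone. Against the XEN lines, the knockouts at cXENp3 were higher in 4 of 36 epithelial genes, including Cldn4 (4.20), Rab25 (2.73) and F11r (1.25), and lower in Cldn6 (-2.57), where 2.64% of all genes were higher and 1.48% lower. The 4 became 1 without KO2.6, 7 without KO3.34, and 2 without WT3, Rescue3.34 or XEN5.

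Of 40 further mesenchymal genes, all matched, 23 of the 32 tested rose from ESCs to XEN lines and 1 fell, with a median log2 change of 2.41, where 22.2% of all genes rose and 19.7% fell. Listed genes under 1 FPKM in every ESC library entered this test only through the XEN lines, so they could only be called higher. When XENB1 or XEN5 was left out, 10 and 12 of 22 tested rose. Thbs1 (7.63), which encodes a matrix glycoprotein, and Tagln (6.54), which encodes a smooth muscle actin-binding protein, were among the risers. Snai3, the third Snai family member, was the one that fell (-2.25, limma adjusted p = 0.00100). At cXENp1 13 of 35 had risen, led by Tagln (7.01), Thbs1 (4.23) and Foxc2 (3.12), and Tgfb1 had fallen (-1.39), where 14.7% of all genes rose and 13.8% fell. The 13 became 5 without KO3.34 and 7 without Rescue3.34, where rises over all genes went from 1934 to 746 and 780. From passage 1 to 3 in the knockouts 14 of 35 rose and none fell, where 12.5% of all genes rose and 8.8% fell. Without KO2.6 or KO3.34 4 rose. Of 8 feeder fibroblast markers tested 5 rose in the same step, and their sum over all 14 went from 37.2 and 29.5 FPKM to 318 and 388 FPKM, the part of which was not tested. The lysyl oxidase Loxl2 (4.49) and the collagen gene Col5a2 (3.79) were among the mesenchymal genes that rose. In the Zfp281-present lines 2 rose and 2 fell in that step, where 4.91% of all genes rose and 6.01% fell. Without Rescue3.34 cXENp3 1 rose and 5 fell.

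At cXENp3 the knockouts were higher in 10 of 35 mesenchymal genes, a share of 28.6% beside 22.9% of all genes, and lower in 1, beside 19% of all genes. Loxl2 (3.31), the receptor genes Tgfbr2 (3.06) and Cd44 (2.82) led the higher ones, and Tgfbi (-3.69) was the lower one. Without Rescue3.34 cXENp3, more mesenchymal genes were called higher, both at cXENp3 and in the interaction of passage with Zfp281 status. Over all genes the higher calls then became fewer at cXENp3 and more in the interaction. WT3 stands alone at cXENp3 in those fits, so their calls rest on a single library. The counts at cXENp3 were 4 higher and 1 lower without KO2.6, and 2 higher and 3 lower without WT3. Tgfbi was at 24.5, 76.4, 3.49 and 1.66 FPKM in the 4 lines at this stage. A set of 6 listed genes is at exactly 0 in some libraries beside values of at least 20 FPKM in others (Cldn3, Acta2, S100a4, Lox, Tnc and Sparc), and these were left out of the counts. Acta2, the smooth muscle actin gene, was listed at 0 in all 4 ESC libraries and at 462 FPKM in Rescue3.34 cXENp3.

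The 3 genes whose profile over the 14 libraries was most like that of each member were taken by Pearson's r of log2(FPKM + 1) among 13386 genes. These are descriptions of 14 libraries that share lines and stages. Snai1 had the closest partners: the laminin gene Lamb1 (r = 0.993), Surf4 (0.991) and Vimp (0.989). Lamb1, a basement membrane gene of parietal endoderm, ran from 8.30 to 23.4 FPKM in ESCs to 1987 and 2933 FPKM in the knockouts at cXENp3. Cdh2 was most like Cyp1b1 (r = 0.985), Rbms1 and Sall2, and Cyp1b1 shared the height at cXENp1, with 64.3, 55.6, 31.4 and 13.8 FPKM. Zeb2 was most like Lrrk2 (r = 0.973), Ccnd2 and Prss23, Snai2 like Leprel2 (0.960), Alcam and Axl, and Vim like Gsn (0.955), Fbxo9 and Thbs1. Cdh1 was most like 2410003L11Rik (r = 0.958), Pls1 and Ccdc92, and Twist1 like Kirrel (0.947), Ngly1 and Bmp2k. Fn1 (Jag1 at 0.882, Pgm2 and Trak1), Epcam (Ap1m2 at 0.832, Zc3h18 and Cldn7) and Zeb1 (Klhdc10 at 0.820, Htra3 and Asb3) had looser partners.

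Among the members themselves, Vim ran most closely with Zeb2 (r = 0.90), Snai1 (0.89) and Snai2 (0.88) over the 14 libraries. Cdh1 was opposite to Snai2 (r = -0.71) and Snai1 (-0.71), and its r with Cdh2 was -0.12. Cdh2 was highest at cXENp1, when Cdh1 stood at 62.3 to 184 FPKM. Fn1 had an r between -0.29 and 0.21 with each of the other 9.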

How the data were processed

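Poly(A) RNA-seq libraries (paired 150-base reads, per the labels' protocols) were processed by the authors with STAR 2.5.3 and Cufflinks 2.1.1 on mm9, per the submitters' processing notes. The deposited values were taken as FPKM: they are not whole and never negative. The table gives no depth or counts, so no interval was computed. Coordinates count from 1. The 10 members, the marker lists and the tests were chosen with earlier results of these data known.

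Values were analysed as log2(FPKM + 1) in limma 3.58.1 (R 4.3.3, eBayes with trend), keeping genes with at least 1 FPKM in 2 or more fitted libraries, and adjusting p by Benjamini-Hochberg over all kept genes within each of 10 comparisons. The code was tested on simulated data. XEN lines were fitted with the 4 ESC libraries. The step from ESC to cXENp1 used line as a block, since each line gave 1 library per stage. Other comparisons used 6 groups of 2 libraries, or 7 with the XEN lines. Genes named beyond the members are up to 3 called genes per list, direction and comparison with the largest change, and 3 genes per member by likeness; 1 gene chosen this way is not reported here. Other genes (Pax6, Tubb3, Lum, Fap, Dpt, Col1a1, Col1a2, Col3a1, Acta2) were chosen after their values were seen. Alternatives covered a pseudocount of 0.1, no filter, a mean of at least 5 FPKM, quantile normalization, eBayes without trend, blocks, the description prefix as a term and leaving out lines. Leaving out Rescue3.34 cXENp3 was chosen after seeing the data. Motifs were searched in RefSeq promoter windows of GRCm38.p6.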

Additional observations from a re-analysis of the deposited data

Results flagged for a closer look

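Snai1 in KO2.6 stood out among the 4 lines at 2 stages. In ESCs it was at 2.60 FPKM, and its gap to the next line was 0.868 of the range of the 4 lines, above Dixon's critical value for 4 samples. At cXENp1 it was at 24.6 FPKM, with a gap of 0.882 of the range. A total of 20 groups of 4 were examined in this way, and chance flags about 1 in 20. The 7 XEN markers summed to 46.7 FPKM in KO2.6 ESCs and 370 FPKM in KO2.6 at cXENp1, against 0.996 to 5.69 and 35.7 to 47.9 FPKM in the other 3 lines, the part of which was not tested.

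The change from passage 1 to 3 differed between the knockouts and the Zfp281-present lines in Cdh1 (-2.13 on the log2 scale, limma adjusted p = 0.0237) and in Snai1 (3.75, limma adjusted p = 0.0319), by the interaction term.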

How the results depend on the processing

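Of the 100 pairs of member and comparison, 22 were called. Over all alternatives for the pairs with a call or a low p, 475 of 548 values kept their direction and their side of the threshold, 45 lost the call, 22 gained one and 6 changed sign. The 48 pairs with neither a call in any alternative nor a low p are not among these values, and 31 of them changed sign under some alternative. The cause of these changes was not tested, except where stated.

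The number of members called from ESCs to XEN lines (6) was 3 with a mean of at least 5 FPKM, which drops Cdh2, Snai2 and Zeb2 from the test, and 3 to 7 when 1 line was left out; those 3 genes were also not tested when a XEN line was left out. From ESCs to cXENp1 (4) it was 2 without a filter, 0 with the prefix as a term (439 genes in all, against 3760), and 1 to 4 by line. Between knockouts and Zfp281-present lines it was 0 to 1 in ESCs (main value 0) and 1 to 7 at cXENp3 (4). From passage 1 to 3 in the knockouts (4) it was 2 without a filter and 1 to 3 by line. In the Zfp281-present lines (1) it was 0 to 2 by line. For the interaction (2) it was 1 with a pseudocount of 0.1 and 1 without a filter. That number fell whichever line was left out, and rose when only the library Rescue3.34 cXENp3 was left out. In each of those fits a lone library stood for its pair. From ESCs to cXENp3 in the Zfp281-present lines (0) it was 1 with a pseudocount of 0.1, for Cdh2 (3.62, adjusted p = 0.0440). That pseudocount also ended the calls for Zeb2 from passage 1 to 3 in the knockouts (1.94, adjusted p = 0.0700) and for Snai1 in the interaction (4.09, adjusted p = 0.0565).

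Signs changed for Fn1 from ESCs to XEN lines (-0.44 to 0.67 by line; 2.35 and called with the prefix as a term) and from ESCs to cXENp1 with the prefix as a term (0.44), for Cdh1 from ESCs to cXENp1 (-0.33 to 0.47 by line), and for Snai2 between the pairs at cXENp3 (-0.57 to 1.02). With a pseudocount of 0.1 the mean log2 cadherin balance in ESCs was -9.23 in Zfp281-present lines and -8.82 in knockouts, against -7.23 and -6.28 with 1.

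Lines pair the stages. With the line as replicate block, 5 members were called from passage 1 to 3 in the knockouts, adding Fn1 (adjusted p = 0.0224); the block changed no other call there, in the Zfp281-present lines or in the interaction. Without the block, 5 were called from ESCs to cXENp1, adding Snai2 (0.0356). Quantile normalization moved the median of all genes from 0.01 to -0.10 between the pairs at cXENp3 and from -0.02 to -0.11 between XEN lines and ESCs. The calls at cXENp3 then split into 2587 higher and 3101 lower, against 3016 and 2512. Those in XEN lines split into 2555 and 2793, against 2747 and 2434.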
